A study of Mus musculus with 20 samples.

Results

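Of 18193 genes measured on mouse expression arrays, 68 stood above embryonic stem cells both in germline stem cells and in pluripotent cells that had been derived from them. They were chosen on group means of log2 intensity, where a difference of 1 is 2-fold: a mean of at least 6 in the derived cells, a level at least 1 above embryonic stem cells both in the derived cells and in the germline stem cells, and a lower mean in embryonic fibroblasts than in the derived cells. Germline pluripotent stem cells (gPS, 5 arrays) and germline stem cells (GSC, 3 arrays) both carried the OG2 background, B6;CBA-Tg[Pou5f1-EGFP]2Mnn/J, in which the Pou5f1 (Oct4) promoter drives green fluorescent protein. The gPS cells grew out of bright colonies that formed within 3 to 4 weeks after about 1000 GSC had been plated in a well on fibroblasts, and they were then expanded in embryonic stem cell medium. GSC were established from testes and kept on inactivated mouse embryonic fibroblasts with GDNF, bFGF, EGF and LIF. ESC-like cells (ESC_like, 3 arrays) from testes of postnatal day 0 to 2 came from another laboratory, with no strain in the labels. Neural stem cells (NSC, 3 arrays) were made from Olig2-GFP embryonic stem cells, and mouse embryonic fibroblasts (MEF, 3 arrays) came from C3H embryos at E12.5. Embryonic stem cells (ESC, 3 arrays) were of a single line, RW4, and like the ESC_like cells they were grown on MEF with leukemia inhibitory factor. Strain, line and cell type therefore cannot be told apart in any difference from ESC, and the labels name no separate cultures for the arrays of a group, so that the p-values below measure the spread between these samples only.

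Germline stem cells are the self-renewing spermatogonia that found sperm production. They carry RNA helicases and Tudor-domain proteins of the germ granule, where the piRNA pathway silences transposons, and many of these genes are methylated at their promoters and silent in somatic cells. When such cells become pluripotent in culture, the germline programme is replaced by that of the early embryo.

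Of the 24 measured genes of a list of germ cell and piRNA genes, 23 were at least 1 above ESC in GSC, where 13.2% of all genes were, and 4 were so in gPS cells, where 2.39% of all genes were. Ddx4, Tdrd5 and Tex19.1 of that list are among the 68 genes. The other one, Tdrd7, failed 2 conditions, with a gPS mean of 5.25, under 6, and a higher mean in MEF, 7.89. Of 27 spermatogonial stem cell genes, only Uchl1 is among the 68. None of 20 meiotic and postmeiotic genes is, although 13 of them were at least 1 above ESC in GSC. The 31 pluripotency genes were all left out by the rule, since none was at least 1 above ESC in GSC. The median difference of the germ cell and piRNA list was 0.17 for gPS minus ESC, against 4.67 for GSC minus ESC. By their known functions the 68 genes were 7 germ cell genes, 11 of cilium, microtubule and actin, 4 of the Wnt pathway, 10 transcription factors and kinases, 5 of RNA, 17 of membrane, matrix and trafficking, 12 of metabolism and protein turnover, and 2 with no role given here. These role groups were drawn up after the members were known and carry no test.

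The promoters of the 3 genes of the germ cell and piRNA list are shown because silencing of such genes in somatic cells is known to rest on methylated CpG dinucleotides. Each run holds the 250 bases before the RefSeq transcript start in GRCm38.p6, 5' to 3' on the strand of the gene, with every CpG in capitals. The Ddx4 window lies at chr13:112652311-112652560 on the minus strand, that of Tdrd5 at chr1:156303349-156303598 on the minus strand and that of Tex19.1 at chr11:121145893-121146142 on the plus strand. The Ddx4 and Tdrd5 windows lie inside the annotated genes, which reach to 112652633 and 156304304, so another start lies further upstream.
Ddx4: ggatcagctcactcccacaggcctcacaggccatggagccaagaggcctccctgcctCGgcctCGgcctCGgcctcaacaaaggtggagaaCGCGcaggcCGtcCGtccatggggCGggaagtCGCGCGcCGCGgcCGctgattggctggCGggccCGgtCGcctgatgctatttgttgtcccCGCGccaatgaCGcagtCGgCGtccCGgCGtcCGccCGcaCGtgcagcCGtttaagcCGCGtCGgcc
Tdrd5: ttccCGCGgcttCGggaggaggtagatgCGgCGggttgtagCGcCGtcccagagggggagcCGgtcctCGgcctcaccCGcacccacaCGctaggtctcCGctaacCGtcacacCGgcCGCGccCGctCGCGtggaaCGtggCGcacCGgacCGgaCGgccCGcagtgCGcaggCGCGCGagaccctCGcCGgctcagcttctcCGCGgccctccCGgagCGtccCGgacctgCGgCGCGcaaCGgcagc
Tex19.1: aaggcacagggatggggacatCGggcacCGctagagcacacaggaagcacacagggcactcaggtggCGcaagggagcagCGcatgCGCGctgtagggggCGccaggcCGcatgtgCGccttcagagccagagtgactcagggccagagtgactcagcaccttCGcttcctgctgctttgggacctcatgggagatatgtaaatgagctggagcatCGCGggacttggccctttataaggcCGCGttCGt
The printed windows hold 31 CpG in Ddx4, 40 in Tdrd5 and 15 in Tex19.1. RefSeq promoters were matched for 55 of the 68 genes, and over the window from 250 bases before to 50 after the start these had a median of 21 CpG, against 22 in 7531 genes with a gPS mean of at least 6 and 7 in all 27025 promoters. The letters CACGTG, which read the same on both strands, stood in the Ddx4 window from 29 to 24 bases before the start. They were in 7 of the 55 promoters (12.7%), against 11.0% of the genes with a gPS mean of at least 6 and 7.24% of all. In CpG number and in this motif the 55 promoters were thus close to those of other genes with a like level in gPS cells.

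In gPS cells 49 of the 68 genes stood between GSC and ESC, and 19 had a mean above that of GSC. The group medians over them were a log2 intensity of 7.71 in gPS, 8.50 in GSC, 7.09 in ESC_like, 6.66 in NSC, 6.77 in MEF and 6.14 in ESC. The median gPS minus ESC difference was 1.41, from 1.00 to 5.87, with 41 genes under 1.5 and 12 at 2 or more. Set against GSC, 23 genes were lower in gPS by 1 or more (11.0% of all genes), 41 lay within 1 either way, and Fos, Trub1, Mgp and AA467197 were higher by 1 or more (9.12% of all genes). The highest of the 6 group means was that of GSC for 46 genes (27.2% of all genes), of gPS for 12, of ESC_like for 6 and of NSC for 4. All gPS arrays lay below all GSC arrays for 32 genes (22.3% of all genes) and above them for Fos, Mgp, Obsl1, Pts and Trub1 (19.2%). These values come from groups that chose the members and are given as a description.

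The 68 genes differed in how they stood in the other cell types. ESC had the lowest of the 6 group means for 29 of the 68 genes (11.3% of all genes, 14.3% of those with a gPS mean of at least 6). NSC were at least 1 above ESC for 20 genes (11.4% of all genes), MEF for 14 (14.1% of those with a gPS mean of at least 6), and both for 7 (5.86% of all genes), namely Egr1, Fos, Ift122, Nav2, Obsl1, Rrbp1 and Tmem181a. The rule required ESC to be below gPS and GSC, which favours a lowest mean in ESC, so these counts are a description. At the other end, 9 genes were at least 2 below gPS in both NSC and MEF (2.01% of all genes): AA467197, Baiap2l1, Cyct, Jakmip1, Mpzl2, Ripk4, Slc35f2, Tex19.1 and Zfp874a.

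**Figure D1:**
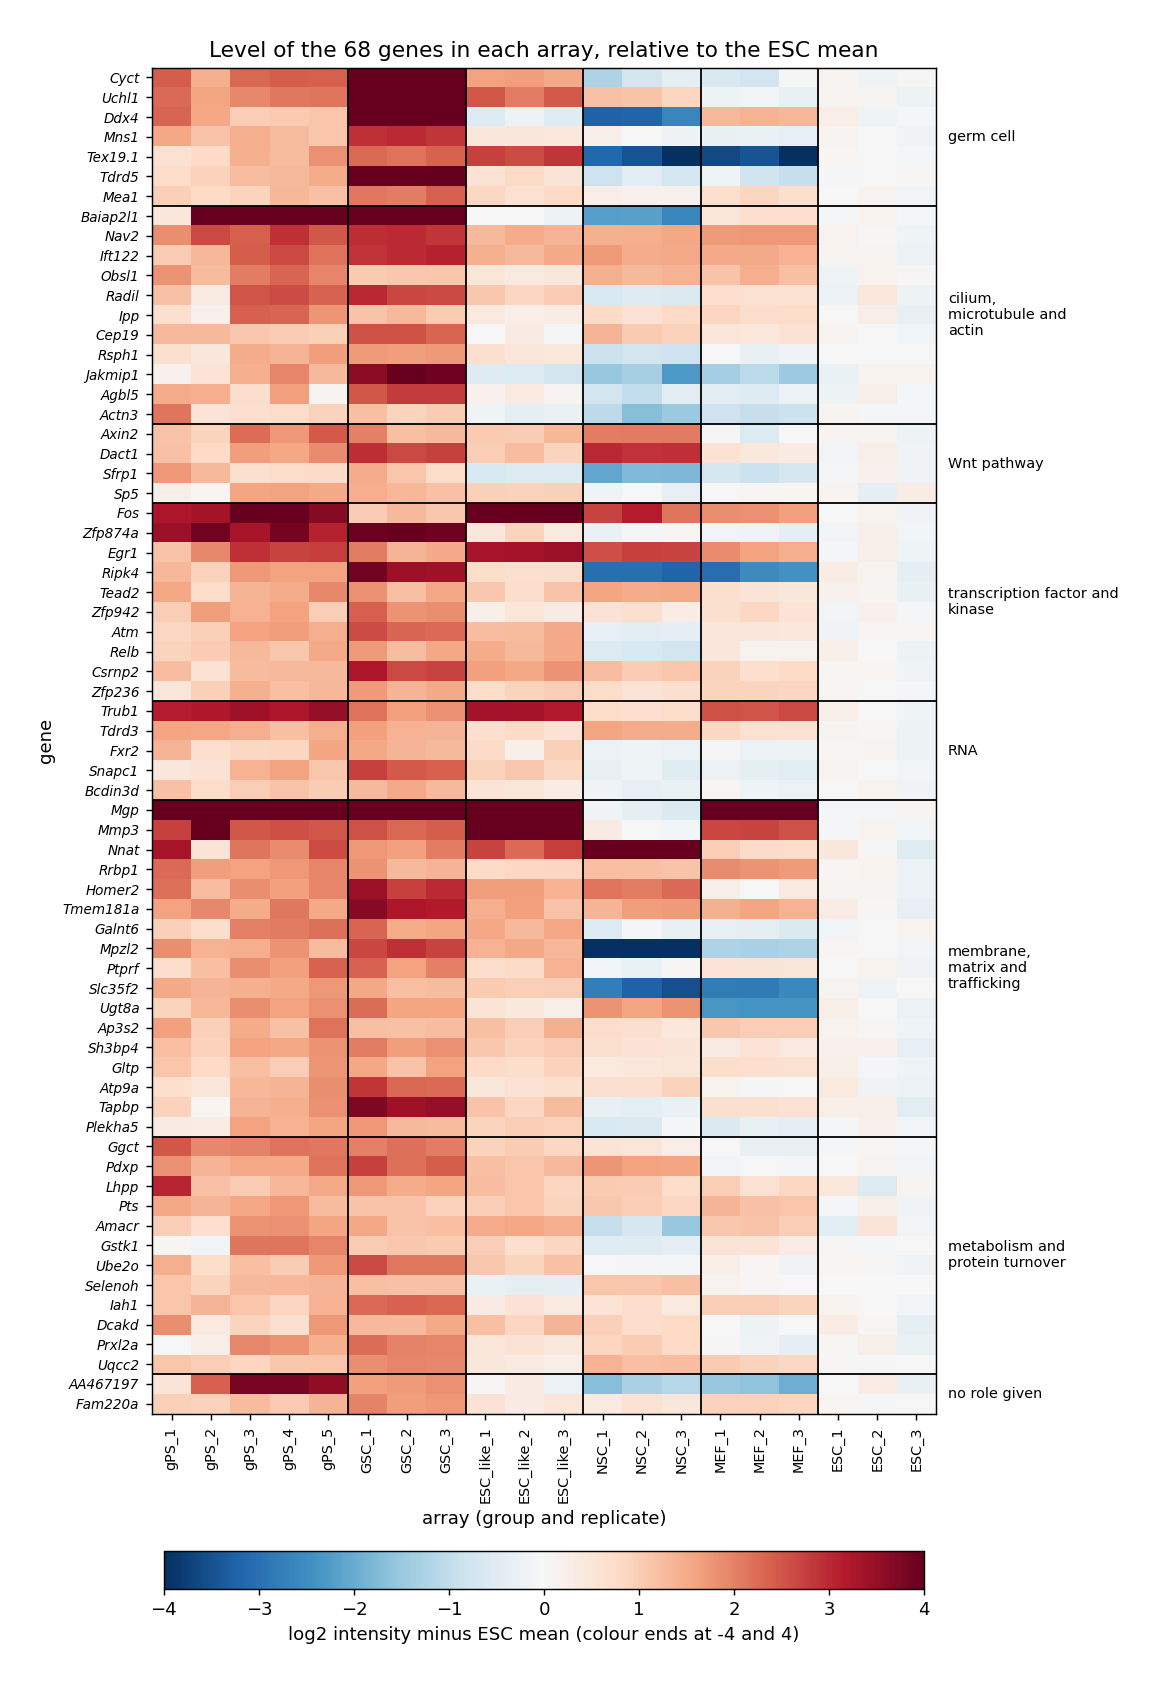
Heat map of the 68 genes (rows, grouped by function) in the 20 arrays (columns, by group and replicate), coloured by log2 intensity minus the ESC mean of the gene, with colours ending at -4 and 4. The GSC columns are the reddest for most genes, the gPS columns are paler for most with exceptions such as Fos, Trub1, Mgp and AA467197, and the NSC and MEF columns hold both red and blue cells.

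The gPS arrays were not alike. Of the 68 genes, 44, 33, 59, 62 and 63 were at least 1 above the ESC mean in gPS replicates 1 to 5, against 66 to 68 in the GSC arrays, 26 to 30 in the ESC_like arrays, 18 to 22 in the NSC arrays and 12 to 15 in the MEF arrays. Replicates 1 and 2 both lay below replicates 3 to 5 for 34 genes (17.4% of all genes, 23.5% of those with a gPS mean of at least 6) and both above for Cep19, Ddx4, Mgp, Mmp3, Sfrp1 and Tdrd3, which is 6 genes (15.0%). Without replicates 1 and 2, a choice made after seeing the data, the same rule gave 108 genes, which include 62 of the 68 and no longer Actn3, Agbl5, Ddx4, Mmp3, Rrbp1 and Sfrp1. Among all arrays gPS replicate 1 had the lowest mean correlation with its own group, 0.979, against 0.997 at the highest. The 3' minus 5' difference of the Actb control, a sign of RNA quality, was 0.29 to 0.57 in gPS and 0.12 to 0.51 in the other arrays save GSC replicate 1 at 1.25.

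**Figure D2:**
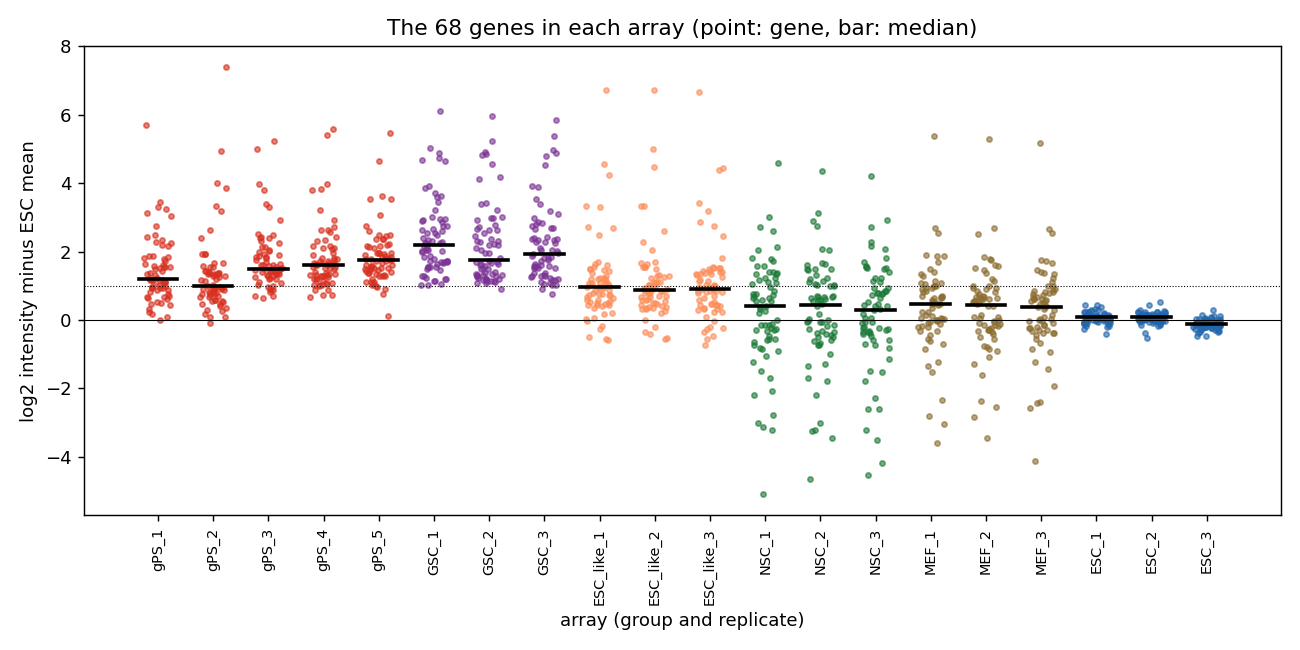
Log2 intensity minus the ESC mean of the gene (vertical axis) for the 68 genes in each of the 20 arrays, 1 point a gene and a bar at the median, with a dotted line at 1. The gPS medians are 1.19 and 0.98 in replicates 1 and 2 and 1.5, 1.61 and 1.74 in replicates 3 to 5, the GSC medians run from 1.76 to 2.20, and the ESC_like medians from 0.88 to 0.95.

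Feeder RNA was estimated through 46 genes abundant in MEF and low in ESC and NSC. These genes cannot tell feeder RNA from other fibroblast-like RNA in a culture. Their median level, with ESC as 0 and MEF as 100%, was 2.25% to 5.36% in gPS, with the highest value in replicate 2, 0.619% to 1.08% in GSC, and 11.8% in the median ESC_like array. ESC were themselves grown on MEF, so the share is relative to theirs. Adding that share of the MEF level to the ESC level gives an estimate of the level that feeder RNA alone would produce. All gPS arrays were above it for 65 of the 68 genes, and by 0.5 or more for 49, which the rule nearly fixes, since it set gPS above both ESC and MEF. The summed level of 27 fibroblast and feeder genes on the log2 scale was 13.45 to 14.10 in gPS, 12.53 to 12.77 in GSC, 15.03 to 15.26 in ESC_like, 16.93 to 16.95 in MEF and 12.29 to 12.40 in ESC. The summed level of 12 macrophage genes ran from 8.67 to 10.92 in gPS, 12.76 to 12.79 in GSC, 11.65 to 11.86 in ESC_like and 8.95 to 9.11 in ESC, and its part in the results was not tested.

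The 7 germ cell genes were all at least 1 lower in gPS than in GSC, with a median difference of -2.81. Ddx4, the germ cell RNA helicase also known as Vasa, had log2 intensities of 8.16, 7.37, 6.82, 6.88 and 6.94 in gPS replicates 1 to 5, against 11.95, 11.79 and 11.68 in GSC, and its mean was 23.8-fold higher in GSC than in gPS. It had 5.27, 5.63 and 5.36 in ESC_like, 2.61, 2.62 and 3.23 in NSC, 7.13, 7.21 and 7.16 in MEF, and 6.09, 5.65 and 5.75 in ESC. The gPS arrays thus lay above ESC and ESC_like, but 3 of 5 lay below the MEF arrays, and Ddx4 no longer met the rule without gPS replicate 1. Tdrd5, a Tudor-domain protein of the germ granule, had 5.99, 6.16, 6.47, 6.53 and 6.74 in gPS, against 10.13, 9.81 and 9.76 in GSC and 5.21, 5.23 and 5.30 in ESC. Cyct, the cytochrome c of the testis, had 6.83, 5.84, 6.72, 6.84 and 6.79 in gPS, 9.44, 9.65 and 9.79 in GSC, and 4.52, 4.26 and 4.44 in ESC. Both genes kept the gPS arrays apart from GSC above and ESC below. Uchl1, a ubiquitin hydrolase abundant in spermatogonia and neurons, had 9.31, 8.60, 8.95, 9.13 and 9.17 in gPS, 11.71, 11.84 and 11.99 in GSC, and 7.15, 7.13 and 6.83 in ESC. Mns1, a protein of meiotic cells and of sperm flagella, averaged 7.70 ± 0.19 in gPS (SD, n = 5), 9.32 in GSC and 6.40 in ESC, and Mea1, the male-enhanced antigen, averaged 9.57 ± 0.22 in gPS, 10.71 in GSC and 8.54 in ESC.

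In ESC_like cells the germ cell genes went separate ways. Tex19.1, which mouse germ cells and pluripotent cells both express and which restrains transposons, had 10.11, 9.98 and 10.25 in ESC_like, against 7.47, 7.36 and 7.33 in ESC. It had 8.01, 8.17, 8.81, 8.65 and 9.22 in gPS, 9.66, 9.57 and 9.74 in GSC, and 3.21 to 4.25 over the NSC and MEF arrays. All ESC_like arrays were above all others, and the difference from ESC was 2.73 ± 0.26 (SE) with a limma adjusted p of 9.3e-08. Uchl1, with 9.53, 9.08 and 9.48 in ESC_like, was 2.33 ± 0.16 above ESC (limma adjusted p = 8.3e-10), and Cyct, with 6.00, 6.09 and 5.92, was 1.60 ± 0.24 above ESC (limma adjusted p = 3.0e-05). Ddx4 was not called, at -0.41 (95% interval -0.94 to 0.12), nor were Tdrd5 at 0.63 (0.23 to 1.02), Mns1 at 0.44 and Mea1 at 0.75. For Ddx4 the ESC_like arrays were below the level that feeder RNA alone would give, by up to 0.90.

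Over all 68 genes, 28 were higher in ESC_like than in ESC and none was lower, at a limma adjusted p under 0.05 and a difference of at least 1 (errors of differences are limma's SE throughout). Of all genes tested 5.11% were called higher and 2.1% lower, and of those with a gPS mean of at least 6, 6.26% and 2.67%. Of 6 genes below ESC in ESC_like, Selenoh and Sfrp1 had an unadjusted limma p under 0.05, and Selenoh also an adjusted one, at differences of -0.33 and -0.56. The median difference was 0.94 over the 68 genes and -0.09 over all genes. The 3 ESC_like arrays were above the 3 ESC arrays for 58 of the 68 genes (33.0% of all genes with a gPS mean of at least 6) and below for 5 (30.8%), namely Actn3, Ddx4, Jakmip1, Selenoh and Sfrp1. The ESC arrays also entered the choice of the members, which are low there by rule, so that these counts are no independent measure of ESC_like cells. ESC_like had a higher feeder share than gPS, GSC, NSC and ESC, and 23 of the 27 fibroblast and feeder genes were called higher in ESC_like than in ESC. Each of the 28 genes called higher was at least 0.535 above the level that feeder RNA alone would give in every ESC_like array, a gap that the call and the condition on MEF largely fix. Without gPS replicates 1 and 2 the rule gave 36 genes called higher of 108.

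The largest ESC_like minus ESC differences belonged to Mgp, Mmp3, Fos, Egr1 and Trub1, all of which were also among the 10 largest gPS minus ESC differences. Mgp, the matrix Gla protein that inhibits calcification of cartilage and vessels, had 10.06, 11.76, 9.60, 9.95 and 9.85 in gPS, 9.02, 9.23 and 9.18 in GSC, 11.10, 11.10 and 11.05 in ESC_like, 9.54 to 9.74 in MEF, 3.79 to 4.23 in NSC, and 4.32, 4.34 and 4.48 in ESC. Its ESC_like minus ESC difference was 6.71 ± 0.34 (limma adjusted p = 5.4e-12). The 3 testis-derived groups and the MEF were high, and both NSC and ESC stood below the median of all values, 4.98. Mmp3, the matrix protease stromelysin 1, had 6.84, 9.03, 6.58, 6.68 and 6.59 in gPS, 8.34, 9.09 and 8.54 in ESC_like, 6.39 to 6.64 in GSC, 6.64 to 6.80 in MEF and 4.00 to 4.24 in ESC. It was 4.55 ± 0.42 above ESC in ESC_like (limma adjusted p = 4.7e-08), and without gPS replicate 2 it no longer met the rule. Both are secreted products known from fibroblasts, and they exceeded what the feeder share would give by at least 4.13 for Mgp and 3.51 for Mmp3 in every ESC_like array. The feeders under GSC were inactivated, whereas the labels do not say so of the MEF arrays, and the part of that difference in these levels was not tested.

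**Figure D3:**
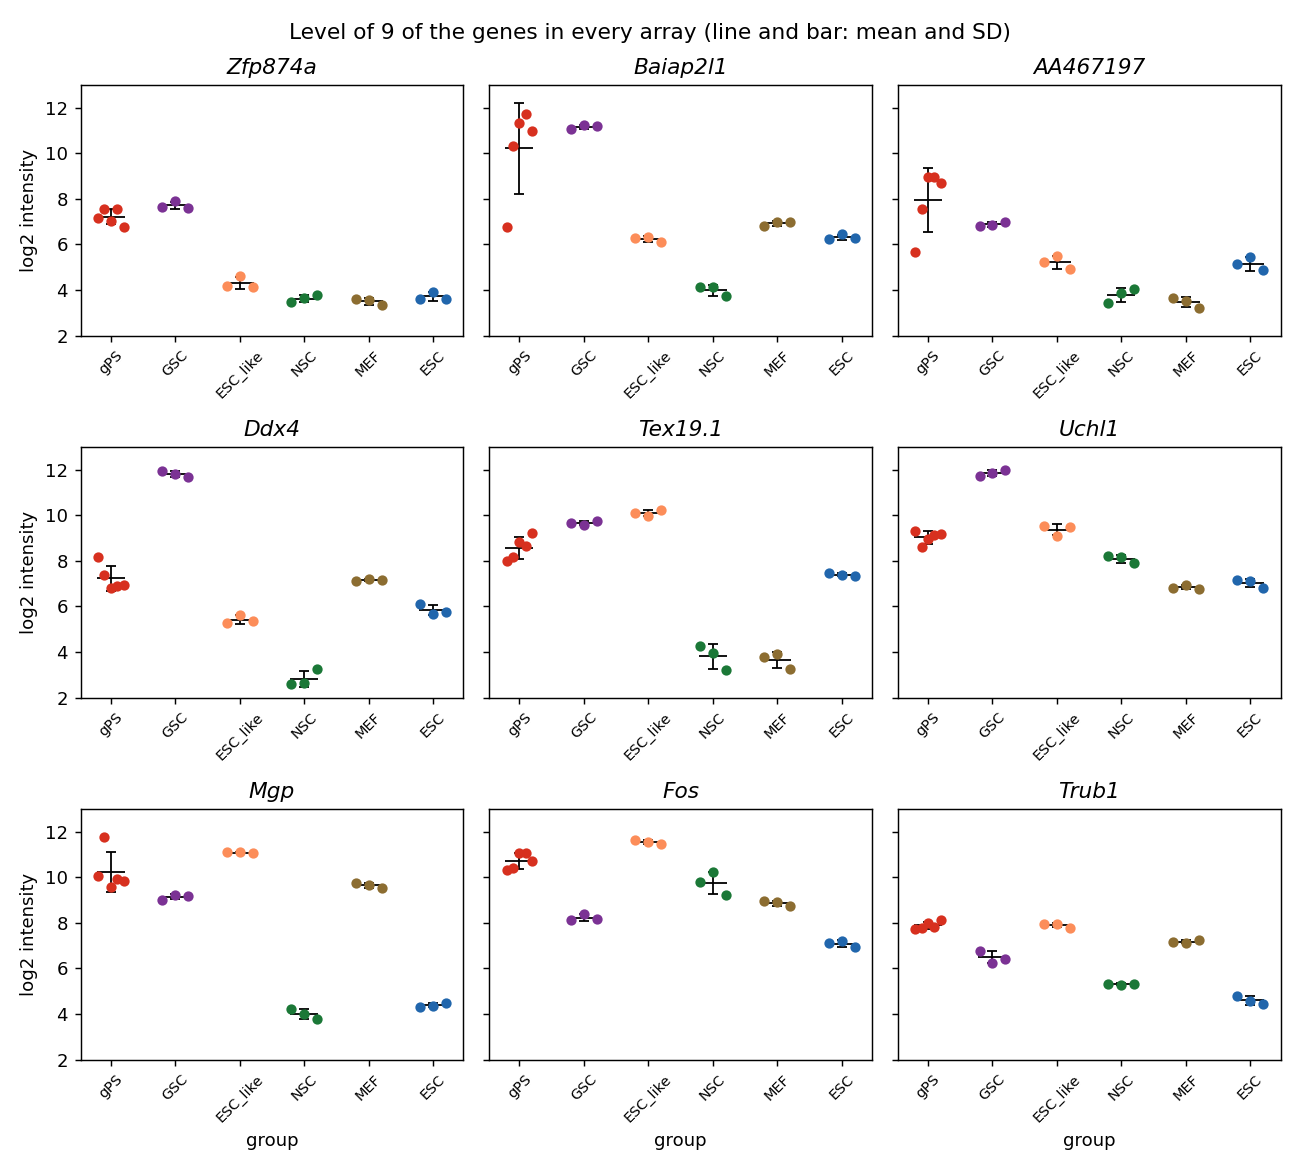
Log2 intensity of 9 of the genes (panels) in every array, by group, with points for arrays and a line and bar for the group mean and SD. Zfp874a, Baiap2l1 and AA467197 are near the ESC level in ESC_like, Tex19.1, Uchl1, Mgp, Fos and Trub1 are well above it, and Ddx4 has its ESC_like points below its gPS points.

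Fos and Egr1 are transcription factors of the immediate early response to growth factors and stress. Fos had 10.33, 10.42, 11.08, 11.05 and 10.72 in gPS, 8.11, 8.40 and 8.17 in GSC, 11.65, 11.55 and 11.46 in ESC_like, 9.24 to 10.22 in NSC, 8.74 to 8.94 in MEF, and 7.11, 7.22 and 6.93 in ESC. Every other array was above the ESC arrays, and ESC_like exceeded ESC by 4.46 ± 0.21 (limma adjusted p = 2.1e-12). Egr1 had 9.41, 10.19, 11.19, 10.97 and 11.02 in gPS, 11.56, 11.59 and 11.70 in ESC_like and 8.19, 8.50 and 8.11 in ESC, and ESC_like exceeded ESC by 3.35 ± 0.31 (limma adjusted p = 5.9e-08). Of 16 immediate early and stress genes, 7 were at least 1 above ESC in gPS (2.39% of all genes) and 6 in GSC (13.2%). In ESC_like against ESC, 9 of them were called higher (5.11% of all genes). Relb, a subunit of NF-kB, was 1.43 ± 0.16 above ESC in ESC_like (limma adjusted p = 9.4e-07), with 6.53, 6.33 and 6.57 in ESC_like and 5.27, 5.03 and 4.84 in ESC. Csrnp2 at 1.66 and Atm, the kinase of the DNA double-strand break response, at 1.34 were the other 2 of 10 transcription factors and kinases called higher. A second bright probe set of Atm gave -0.47, and the Atm call ended at 0.44 with the mean of both. Tead2 at 0.97, Zfp236 at 0.87, Ripk4 at 0.71, Zfp874a at 0.58 and Zfp942 at 0.33 were not.

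Trub1 encodes a pseudouridine synthase that modifies transfer RNA. It had 7.73, 7.80, 8.0, 7.83 and 8.13 in gPS, 6.77, 6.25 and 6.43 in GSC, 7.94, 7.94 and 7.79 in ESC_like, 5.27 to 5.33 in NSC, 7.13 to 7.25 in MEF, and 4.81, 4.57 and 4.43 in ESC. The gPS and ESC_like arrays overlapped, above all other groups, and ESC_like exceeded ESC by 3.29 ± 0.13 (limma adjusted p = 2.6e-13). Of the 11 genes of cilium, microtubule and actin, Ift122, part of the intraflagellar transport machinery, was 1.41 above ESC in ESC_like and Nav2, a neuron navigator that binds microtubules, 1.38, and the other 9 were not called. The other 4 RNA genes, Tdrd3, Fxr2, Bcdin3d and Snapc1, differed from ESC in ESC_like by 0.44 to 0.94 and were not called.

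Nnat, a paternally expressed imprinted gene of developing brain, had 8.61, 5.85, 7.46, 7.21 and 7.92 in gPS, 7.05, 6.95 and 7.37 in GSC, 8.02, 7.59 and 8.07 in ESC_like, 9.89, 9.67 and 9.52 in NSC, and 5.76, 5.36 and 4.84 in ESC. The gPS arrays spanned the range from near ESC to above ESC_like. ESC_like exceeded ESC by 2.58 ± 0.41 (limma adjusted p = 7.3e-05) and differed from NSC by -1.80 ± 0.41 (limma adjusted p = 0.0010). Tapbp, the tapasin that loads peptides on class I MHC, averaged 7.92 ± 0.66 in gPS (SD, n = 5) and 10.35 ± 0.16 in GSC (n = 3), and was 1.08 above ESC in ESC_like, a call that ended at 0.85 without ESC replicate 3 and at 0.998 without ESC_like replicate 3. Homer2, a scaffold of synaptic and calcium signalling, was 1.58 ± 0.20 above ESC in ESC_like (limma adjusted p = 4.3e-06), but its other 2 probe sets, below the median of all values in both groups, gave -0.22 and -0.29. Of the 17 genes of membrane, matrix and trafficking 9 were called higher in ESC_like than in ESC, with Galnt6 at 1.46, Mpzl2 at 1.42, Tmem181a at 1.41 and Ap3s2 at 1.19 as the others. The calls of Galnt6 and Ap3s2 ended with the mean of all probe sets, at 0.97 and 0.12, and the other Ap3s2 probe sets with a group mean over 6 gave -0.57, -0.15, -0.19 and 0.04.

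Among the 4 Wnt pathway genes, Axin2, a negative regulator that is itself a Wnt target, had 6.91, 6.65, 8.0, 7.48 and 8.22 in gPS, 7.79, 6.95 and 7.05 in GSC, 6.81, 6.78 and 7.10 in ESC_like, 7.81 to 7.84 in NSC, 5.21 to 5.81 in MEF, and 5.86, 5.86 and 5.56 in ESC. It was 1.14 ± 0.31 above ESC in ESC_like (limma adjusted p = 0.0078). Dact1, which binds Dishevelled, was 1.03 ± 0.20 above ESC in ESC_like (limma adjusted p = 5.5e-04), a call that ended at 0.98 without ESC replicate 1, at 0.96 without ESC replicate 3 and at 0.93 without ESC_like replicate 2. Sp5, a transcription factor induced by Wnt, was not called at 0.95. Sfrp1, a secreted inhibitor of Wnt ligands, had 9.34, 8.92, 8.26, 8.34 and 8.37 in gPS, 9.11, 8.71 and 8.35 in GSC, 7.01, 7.07 and 7.05 in ESC_like, and 7.57, 7.79 and 7.47 in ESC, and its ESC_like minus ESC difference of -0.56 was not called. In the probe set used, the gPS arrays of Sfrp1 were all above the ESC arrays, and the ESC_like arrays all below them. Its other probe sets gave gPS minus ESC differences of 0.13, 0.11, 0.45 and 1.02. Their ESC_like minus ESC differences were -0.02, -0.37, 0.03 and -0.67, in the same order. Sfrp1 no longer met the rule with the mean of its probe sets. In a list of 29 BMP, TGF-beta and Wnt genes, 6 were at least 1 above ESC in gPS (2.39% of all genes) and 5 in GSC (13.2%). In ESC_like against ESC, 10 of them were called higher (5.11% of all genes) and 2 lower (2.1%).

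Genes of metabolism and protein turnover made up 6 of the 28 calls. Amacr, a racemase of branched fatty acid oxidation, was at 1.49, and Pts, an enzyme of tetrahydrobiopterin synthesis, at 1.00. The others were Pdxp at 1.20, Dcakd at 1.14, Lhpp at 1.06 and Ube2o at 1.05. The calls of Dcakd, Lhpp, Ube2o and Pts each ended without 1 of the arrays. Without ESC replicate 3, Dcakd was at 0.96, Ube2o at 0.98, Pts at 0.92, and Lhpp kept 1.12 with a limma adjusted p of 0.052. Lhpp was at 0.79 without ESC replicate 2, 0.98 without ESC_like replicate 1 and 1.04 (limma adjusted p = 0.068) without ESC_like replicate 2. Ube2o was at 0.99 without ESC_like replicate 3, and Pts at 0.97 without ESC replicate 1 and 0.95 without ESC_like replicate 2. The other 22 of the 28 calls stood without any 1 array.

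Set directly against ESC_like cells, 15 of the 68 genes were higher in gPS (1.11% of all genes, 1.81% of those with a gPS mean of at least 6), 3 were lower (3.74% and 4.09%) and 50 were not called. The ESC_like mean was at or above the gPS mean for 12 of the 68 genes (38.2% of all genes). The gPS arrays had entered the choice of the members, and they are high there by rule. The role group of cilium, microtubule and actin, drawn up after the members were known, held 7 of the 15. These were Baiap2l1, Jakmip1, Obsl1, Actn3, Ipp, Nav2 and Cep19. The calls of Actn3, Ipp, Nav2 and Cep19 each ended without 1 of the arrays. Those of Jakmip1 and Obsl1 ended where probe sets of shared suffix were left out. The largest difference was that of Baiap2l1, an actin-bundling protein that bends membranes, with 6.77, 10.34, 11.33, 11.73 and 10.96 in gPS, 11.06, 11.23 and 11.21 in GSC, 6.30, 6.32 and 6.10 in ESC_like, 3.72 to 4.14 in NSC, 6.81 to 7.00 in MEF, and 6.25, 6.45 and 6.26 in ESC. In 4 gPS arrays it was near the GSC level, and replicate 1 was just under the MEF arrays. The gPS minus ESC_like difference was 3.98 ± 0.66 (limma adjusted p = 1.3e-04), and 4.85 without gPS replicate 1.

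Zfp874a, a gene of the large family of zinc finger proteins, separated gPS, GSC and ESC_like without overlap. It had 7.15, 7.57, 7.03, 7.54 and 6.78 in gPS, 7.63, 7.90 and 7.60 in GSC, 4.16, 4.60 and 4.12 in ESC_like, 3.45 to 3.76 in NSC, 3.34 to 3.62 in MEF, and 3.61, 3.92 and 3.62 in ESC. The arrays of both OG2 groups stood above those of every other group, and gPS exceeded ESC_like by 2.92 ± 0.16 (limma adjusted p = 1.1e-10). AA467197, with no role given here, had 5.66, 7.55, 8.95, 8.95 and 8.70 in gPS, 6.79, 6.87 and 6.97 in GSC, 5.21, 5.49 and 4.93 in ESC_like and 5.14, 5.46 and 4.86 in ESC. It was higher in 4 gPS arrays than in GSC and near ESC in replicate 1, and gPS exceeded ESC_like by 2.75 ± 0.49 (limma adjusted p = 2.3e-04). Ddx4 was 1.81 ± 0.23 higher in gPS than in ESC_like (limma adjusted p = 4.7e-06) and Sfrp1 1.60 ± 0.20 (limma adjusted p = 4.5e-06), a call that ended at 0.87 with the mean of its probe sets.

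Selenoh, a nuclear selenoprotein, had 11.63, 11.40, 11.81, 11.85 and 11.89 in gPS, 11.68 to 11.72 in GSC, 10.16 to 10.25 in ESC_like, 11.62 to 11.73 in NSC, 10.55 to 10.65 in MEF and 10.51 to 10.54 in ESC. It was the 1 gene with its lowest group mean in ESC_like, and gPS exceeded ESC_like by 1.52 ± 0.10 (limma adjusted p = 9.7e-10). Jakmip1, which binds Janus kinases and microtubules, had 6.45, 6.84, 7.72, 8.24 and 7.58 in gPS, 9.88, 10.39 and 10.19 in GSC, 5.78, 5.73 and 5.56 in ESC_like and 6.01, 6.42 and 6.43 in ESC, and was 1.68 ± 0.29 higher in gPS than in ESC_like (limma adjusted p = 1.8e-04). Obsl1, an adaptor of the cytoskeleton, was 1.44 ± 0.16 higher (limma adjusted p = 8.4e-07). That call ended where probe sets of shared suffix were left out. The other Obsl1 probe sets gave GSC minus ESC differences of 0.02, -0.32, -0.12 and 0.64. Their gPS minus ESC differences were 2.02, 0.04, 0.81 and 1.37, in the same order. Obsl1 no longer met the rule with the mean of its probe sets or without those of shared suffix. Ggct, Ugt8a, Ipp, Actn3, Nav2, Cep19 and Rrbp1 were higher by 1.03 to 1.28. Of these, Actn3 was at 0.996 without gPS replicate 1 and Nav2 at 0.96 without gPS replicate 4, and so lost the call. Cep19 was at 0.966 to 0.999 without either of gPS replicates 1 and 2 or of ESC_like replicates 1 and 3, and Rrbp1 at 0.93 without gPS replicate 1 and 0.998 without ESC_like replicate 1. Other Rrbp1 probe sets put gPS below ESC_like and MEF, with means of 7.41 and 7.49 in gPS, 8.32 and 8.33 in ESC_like, and 9.71 and 10.10 in MEF. A further one had 6.23 in gPS, 5.94 in ESC_like and 6.25 in MEF. Ipp was at 0.92 without gPS replicate 3 and 0.93 without gPS replicate 4, with limma adjusted p of 0.057 and 0.053 without ESC_like replicates 2 and 3.

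The 3 genes lower in gPS than in ESC_like were Tex19.1 at -1.54 ± 0.23 (limma adjusted p = 4.7e-05), Mmp3 at -1.51 ± 0.37 (limma adjusted p = 0.0043) and Egr1 at -1.06 ± 0.28 (limma adjusted p = 0.0069). For Tex19.1 all 5 gPS arrays lay below the ESC_like arrays. For Mmp3, gPS replicate 2 at 9.03 was within the ESC_like range and the other 4 were below it. The Egr1 call ended at -0.77 without gPS replicate 1 and at -0.96 without gPS replicate 2, the 2 lowest gPS arrays. The intervals of genes not called show how close the groups may be: for Trub1 the gPS minus ESC_like difference was 0.01 (95% interval -0.24 to 0.26), for Tapbp 0.04 (-0.49 to 0.57) and for Sp5 0.05 (-0.53 to 0.63).

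**Figure D4:**
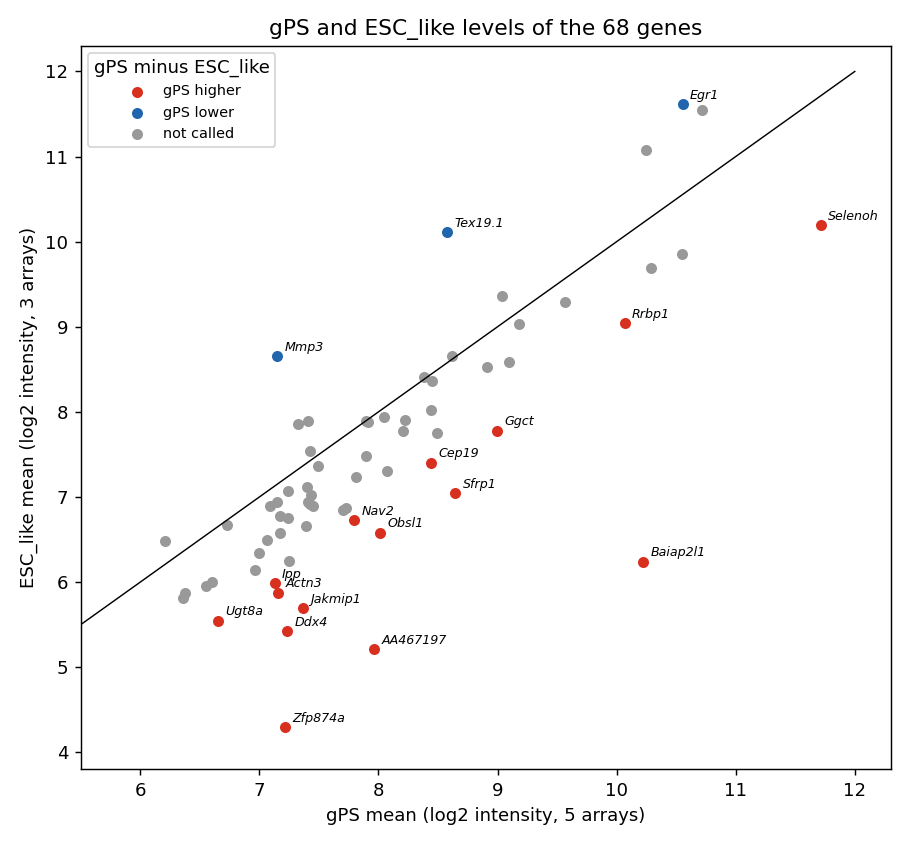
Mean log2 intensity of the 68 genes in ESC_like (vertical axis, 3 arrays) against gPS (horizontal axis, 5 arrays), with a line of equal level. The 15 genes called higher in gPS (red) include Zfp874a and Baiap2l1 far below the line, and Egr1, Tex19.1 and Mmp3 (blue) lie above it.

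No condition of the rule named ESC_like or NSC, but their arrays entered the mean by which the probe set of each gene was chosen. The rule also set gPS at 6 or more and above MEF, which favours genes high in pluripotent cells. No background of genes with gPS above MEF was computed, so the counts against NSC are a description. Of the 68 genes 30 were higher in ESC_like than in NSC and 5 were lower, where 11.3% and 9.69% of all genes were called, and 17.9% and 9.88% of those with a gPS mean of at least 6. The median difference was 0.67 over the 68 genes and -0.02 over all genes. The largest were Mgp at 7.07, Tex19.1 at 6.31, Mpzl2, an adhesion molecule of epithelia, at 6.17, Mmp3 at 4.49, Slc35f2, a membrane transporter, at 4.16 and Ripk4, a kinase known from epidermis, at 3.79. Ddx4 was 2.60 ± 0.25 higher in ESC_like than in NSC (limma adjusted p = 2.4e-08), Cyct 2.38 and Tdrd5 1.28, so that 5 of the 7 germ cell genes were called higher, with Uchl1 at 1.27. NSC minus ESC was -3.59 for Tex19.1, -3.01 for Ddx4, -0.78 for Cyct, -0.65 for Tdrd5 and 1.05 for Uchl1. It was -4.75 for Mpzl2, -3.17 for Slc35f2, -3.08 for Ripk4, -0.37 for Mgp and 0.07 for Mmp3. For Tex19.1, Ddx4, Mpzl2, Slc35f2 and Ripk4, ESC thus stood well above NSC too. The median feeder share was 11.8% in ESC_like and -0.184% in NSC, and its part in these differences was not tested. Lower in ESC_like than in NSC were Dact1 at -1.91, Nnat at -1.80, Selenoh at -1.46, Ugt8a, which makes the galactolipids of myelin, at -1.33 and Cep19 at -1.01. The Cep19 call ended at -0.98 without ESC_like replicate 1, -0.94 without ESC_like replicate 3 and -0.89 without NSC replicate 1. Among the higher genes, Jakmip1 lost the call without NSC replicate 3 (0.83), as did Baiap2l1 (2.12, limma adjusted p = 0.052), Gstk1 without ESC_like replicate 1 (1.21, limma adjusted p = 0.057), Ptprf without ESC_like replicate 3 (0.85) or NSC replicate 2 (0.99), and AA467197 without any of 5 arrays (1.27 to 1.56, limma adjusted p of 0.051 to 0.11).

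Close to the thresholds of the rule the set shaded into its neighbours. Sp5 and Actn3 had gPS minus ESC differences of 1.00 and 1.01, and just outside stood Myo19 and Pigx, both at 0.99. On the GSC minus ESC side, Actn3 at 1.04 and Gstk1 at 1.05 were inside, and Phpt1 at 0.95 and Thop1 at 0.94 outside. On the gPS mean, Relb at 6.21 and Lhpp at 6.36 were inside, and Zfp213 at 5.93 and Dynlt1f at 5.87 outside. Rrbp1, with 10.07 in gPS and 10.02 in MEF, and Ddx4, with 7.23 in gPS and 7.17 in MEF, just met the condition on MEF, which Ndufs5, with 10.14 in gPS and 10.15 in MEF, and Selenop, with 8.09 in gPS and 8.13 in MEF, just failed. Failing a single condition were 697 genes for gPS minus ESC, 128 for MEF, 94 for GSC minus ESC and 10 for the gPS mean.

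Each gene was read from 1 probe set. Of the 68 genes 35 have no other, and 33 have 65 others, of which 38, in 25 genes, reached a group mean of 6. Of those 38, 9 probe sets in 8 genes also had both differences from ESC at 1 or more, and 1 had a gPS mean below the ESC mean. Baiap2l1 was among the 8 genes, its next probe set with means of 8.37 in gPS, 8.36 in GSC, 5.26 in ESC_like and 5.51 in ESC. The 3 other probe sets of Jakmip1 stayed under 5 in all groups. With the mean of all probe sets of a gene, which mixes in dim ones, 7 of the 28 ESC_like minus ESC calls ended (Ap3s2, Atm, Axin2, Galnt6, Homer2, Nav2 and Pts), 6 of the 18 gPS minus ESC_like calls (Ggct, Jakmip1, Nav2, Rrbp1, Sfrp1 and Ugt8a) and 6 of the 35 ESC_like minus NSC calls (Atm, Baiap2l1, Jakmip1, Plekha5, Ptprf and Ugt8a).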

How the data were processed

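Biotin-labelled RNA of 20 samples was hybridised to Affymetrix mouse arrays, per the labels' protocols. The deposited log2 intensities per probe set were made by the authors with RMA (background correction, quantile normalization, probe summary), per the submitters' processing notes. Its version, and whether the ESC_like arrays were processed with the rest, are not given in the sources used here. The values were used as deposited, with array medians of 4.95 to 5.04 and values from 2.04 to 14.71.

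Of 45101 probe sets, 64 were controls, 34945 had 1 symbol, 932 several and 9160 none. Symbols were updated through gene identifiers for 34741. Each of 18193 genes was read from its brightest probe set by the mean of the 20 arrays, and 9010 genes have several. The fit was limma 3.58.1 (R 4.3.3, lmFit and eBayes) with 6 group means and no covariate, adjusted by Benjamini-Hochberg over all genes, and intervals are at 95%. The fit was tested on simulated data. Alternatives were other normalizations, probe set rules, thresholds and fits, and each array left out in turn.

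The members, role groups and gene lists were chosen with earlier results of these data known. Named genes were those with the 10 largest gPS minus ESC, the 8 largest and 8 smallest ESC_like minus ESC, the 6 largest and 6 smallest gPS minus GSC, the 5 widest ranges over gPS and the 5 largest NSC minus gPS values, members of a list, and genes next to a threshold. Other members named were picked after their values were seen. Array values with 3 samples a group limit the precision. Figures used Python 3.11.15 and matplotlib 3.10.9.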

Additional observations from a re-analysis of the deposited data

Results flagged for a closer look

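Among the 68 genes, 7 had 1 gPS array far from the other 4, by the size of its gap relative to the range of the 5 arrays. Chance flags about 1 in 20 groups. In gPS replicate 1, Actn3 had a log2 intensity of 8.31 where the others had 6.69 to 7.06, Lhpp had 7.79 where the others had 5.78 to 6.26, and Baiap2l1 had 6.77 where the others had 10.3 to 11.7. In gPS replicate 2, the 2 matrix genes Mgp and Mmp3 were high, at 11.8 where the others had 9.60 to 10.1 and at 9.03 where the others had 6.58 to 6.84. The same array had the highest feeder share of the gPS arrays, 5.36%, and its part in these levels was not tested. Csrnp2 at 6.78, where the others had 7.42 to 7.5, and Cyct at 5.84, where the others had 6.72 to 6.84, were low in gPS replicate 2.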

How the results depend on the processing

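The set itself moved with its thresholds: it held 57 to 83 genes when 1 array was left out, 23 with both differences from ESC at 1.5 or more, 35 with MEF at least 1 below gPS, and 108 without gPS replicates 1 and 2, a choice made after seeing the data; 45 genes stayed in each setting that left out 1 array, and 27 also under both other probe set rules and without gPS replicates 1 and 2. Of ESC_like minus ESC, 28 higher and 0 lower, leaving out 1 array gave 25 to 32 and 0; adjusted p alone gave 50 and 1, a difference of 1.5 gave 11 higher, both differences from ESC at 1.5 gave 16 and MEF at least 1 below gPS gave 12. Of gPS minus ESC_like, 15 higher and 3 lower, leaving out 1 array gave 12 to 18 and 2 to 3; adjusted p alone gave 30 and 6, a difference of 1.5 gave 7 higher, both differences at 1.5 gave 6 higher, MEF at least 1 below gPS gave 9 and 1, and only the compared groups in the fit gave 1 lower. Of ESC_like minus NSC, 30 higher and 5 lower, leaving out 1 array gave 25 to 31 and 4 to 6; adjusted p alone gave 12 lower, a difference of 1.5 gave 16 and 2, both differences at 1.5 gave 11 and 2, MEF at least 1 below gPS gave 3 lower, no minimum on the gPS mean gave 8 lower, and without gPS replicates 1 and 2 there were 10 lower. These settings change the genes in the set, the threshold or the arrays in the fit, and why each count moved was not tested. Signs turned for Rrbp1 in gPS minus ESC_like (-0.11, mean of its probe sets), and for Homer2 in ESC_like minus ESC (-0.22) and Jakmip1 in ESC_like minus NSC (-0.10), where probe sets of shared suffix were left out. With a replicate block the counts were 28 higher and 0 lower, 13 higher and 3 lower, and 30 higher and 5 lower; Ipp, Nav2 and Ugt8a lost the gPS minus ESC_like call. The numbers were not taken to pair the samples, since 7 of 45 pairs of arrays with the same number correlated above 0.1; 11 of 18 arrays correlated best with their own number, a hint from the data and not from the design. Genes near the array background, such as Mgp and Mmp3 in NSC and ESC, have folds that the array's floor limits.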
